A study of Mus musculus with 9 samples.

Results

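The SIBLING genes (small integrin-binding ligand, N-linked glycoproteins) encode secreted, acidic phosphoproteins of mineralized matrix. All 5 members of the mouse family, Ibsp, Spp1, Dmp1, Mepe and Dspp, were taken by name from the deposited count table of 43472 genes. RNA sequencing covered 9 libraries of C57BL/6J mice: 3 of immature cartilage (immature chondrocytes, ImC), 3 of mature cartilage (mature chondrocytes, MatC) and 3 of bone (osteoblasts, Bone). No group carried a treatment or an engineered allele according to the labels, which give neither age, sex, anatomical site nor whether the replicates came from separate animals, so the p-values measure only the spread between these samples and that spread may be technical. RNA of every library was amplified for 1 round before library preparation. A filter on low counts left 14257 genes for testing and 4 of the 5 members; Dspp was too low.

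SIBLING proteins are made by cells that deposit bone, dentin and calcifying cartilage, are phosphorylated in the secretory pathway by the kinase Fam20c, and bind both calcium and collagen-rich matrix. Most carry an arginine-glycine-aspartate motif that cell-surface integrins recognise, and several are cut by proteases into fragments with activities of their own. Ibsp (bone sialoprotein) can nucleate mineral, Spp1 (osteopontin) restrains crystal growth and serves as an adhesion ligand for osteoclasts, Dmp1 and Mepe are products of mature osteoblasts and osteocytes tied to phosphate balance, and Dspp is the precursor of the main non-collagenous proteins of dentin.

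The 5 genes lie side by side on the plus strand of chromosome 5 and are all protein coding. In GENCODE M21 on GRCm38, Dspp occupies chr5:104170712-104180127, Dmp1 chr5:104202613-104214102, Ibsp chr5:104299171-104311469, Mepe chr5:104325329-104338611 and Spp1 chr5:104435118-104441050. The whole cluster spans 270.3 kb, with gaps of 22.5, 85.1, 13.9 and 96.5 kb between consecutive members. Only Spp1 overlaps another annotated gene (Gm42793, same strand), and that gene is not among the counted genes.

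The start regions of 4 members share a short arrangement, shown here because these are the members with a promoter entry, and their levels differed between the tissues. The promoters, as RefSeq gives them on GRCm38.p6, were read from 250 bases before to 50 bases after each start. In these members the letters ATTGG (the reverse complement of the CCAAT box) were followed after exactly 21 bases by an AT-rich box, TTTAAA or TTTATA. Each line below gives 62 bases, 5′ to 3′ on the gene's strand, with these boxes in capitals.
Ibsp: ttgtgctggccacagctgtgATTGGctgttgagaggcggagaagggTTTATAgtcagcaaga
Spp1: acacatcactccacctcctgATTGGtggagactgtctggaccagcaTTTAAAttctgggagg
Dmp1: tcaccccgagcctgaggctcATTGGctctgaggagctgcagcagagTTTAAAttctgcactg
Mepe: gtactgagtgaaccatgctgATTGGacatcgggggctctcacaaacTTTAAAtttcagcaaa
Sost: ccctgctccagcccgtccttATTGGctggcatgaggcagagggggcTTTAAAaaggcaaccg

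The stretches lie at chr5:104299213-104299274 for Ibsp, chr5:104435045-104435106 for Spp1, chr5:104202540-104202601 for Dmp1 and chr5:104325288-104325349 for Mepe. Counted from the RefSeq start, ATTGG begins at -54 in Ibsp, -46 in Spp1 and -57 in Dmp1, and the AT-rich box at -28, -20 and -31. In Mepe both are shifted downstream, to -21 and 6, so that the AT-rich box falls after the annotated start. For Ibsp the RefSeq start lies 116 bases downstream of the GENCODE start, so that its stretch is inside the first exon in GENCODE. The alternative RefSeq starts of Dmp1 and Spp1 do not have the arrangement, and Dspp had no entry among the promoters.

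The arrangement was found by reading the members' own promoters, so its presence in them is a description. On the gene's strand it occurs in 17 of 32851 promoter windows (0.0517%), which belong to 13 of 27025 genes, and on either strand in 21 windows (0.0639%). With any gap from 16 to 26 bases it occurs in 87 windows (0.265%). By themselves the boxes are common, ATTGG in 22.1% of windows and the AT-rich box in 18.6%. Of the 9 further genes with the exact arrangement, Sost, which encodes the osteocyte Wnt inhibitor sclerostin, is shown above (chr11:101967030-101967091, minus strand, ATTGG at -56). It was picked, after its values were seen, as the bone gene among them. Of the others that were counted, Mbd3 averaged 46.0, 39.2 and 44.6 CPM in ImC, MatC and Bone, Vsnl1 0, 0.908 and 1.34 CPM, and the odorant receptor genes Olfr776 and Olfr799 had no read. The RUNX core TGTGGT or ACCACA, present in 16.8% of windows, occurs at -164 in Dmp1, at -118 and -80 in Mepe and at -128 in Spp1, and these letters are not in the Ibsp window.

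Libraries held 7913684 to 23159547 counted reads. The share of mitochondrially encoded reads was low in Bone (7.24% to 8.91%), higher in ImC (32% to 55%) and highest in MatC (33.7% to 82.3%). MatC replicate 3 stood apart, with 3535238 effective reads, so that 3 reads equalled 0.849 counts per 1e6 reads (CPM) there and at most 0.257 CPM elsewhere. Marker genes mostly followed the labels: Col2a1, the main cartilage collagen, was at 4769 to 9782 CPM in the cartilage libraries and Col1a1, the main bone collagen, at 19750 to 23190 CPM in Bone. Bglap (osteocalcin), a marker of mature osteoblasts, had few counted reads in Bone, at 0.676 to 3.14 CPM, as had Bglap2 at 0.619 to 2.17 CPM. The other osteoblast markers examined were at 59.1 CPM (Serpinf1) or more in every Bone library.

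As a family, the SIBLING genes went from a trace in immature cartilage to a large share of the reads in bone. Their summed level was 10.1, 7.79 and 20.5 CPM in ImC replicates 1, 2 and 3, then 2011, 8864 and 846.1 CPM in MatC, and 23120, 19190 and 16420 CPM in Bone. The groups did not overlap in this sum, which in Bone was mostly Ibsp, while Spp1 and Dmp1 overlapped between MatC and Bone. Of single tested genes, 11.4% were higher in every MatC library than in any ImC library. For Bone over MatC this share was 17.9%. In Bone the 5 genes took 3.47%, 2.83% and 2.48% of all reads. In these bulk samples, fewer cells that express a gene and less of its RNA per cell cannot be told apart.

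**Figure D1:**
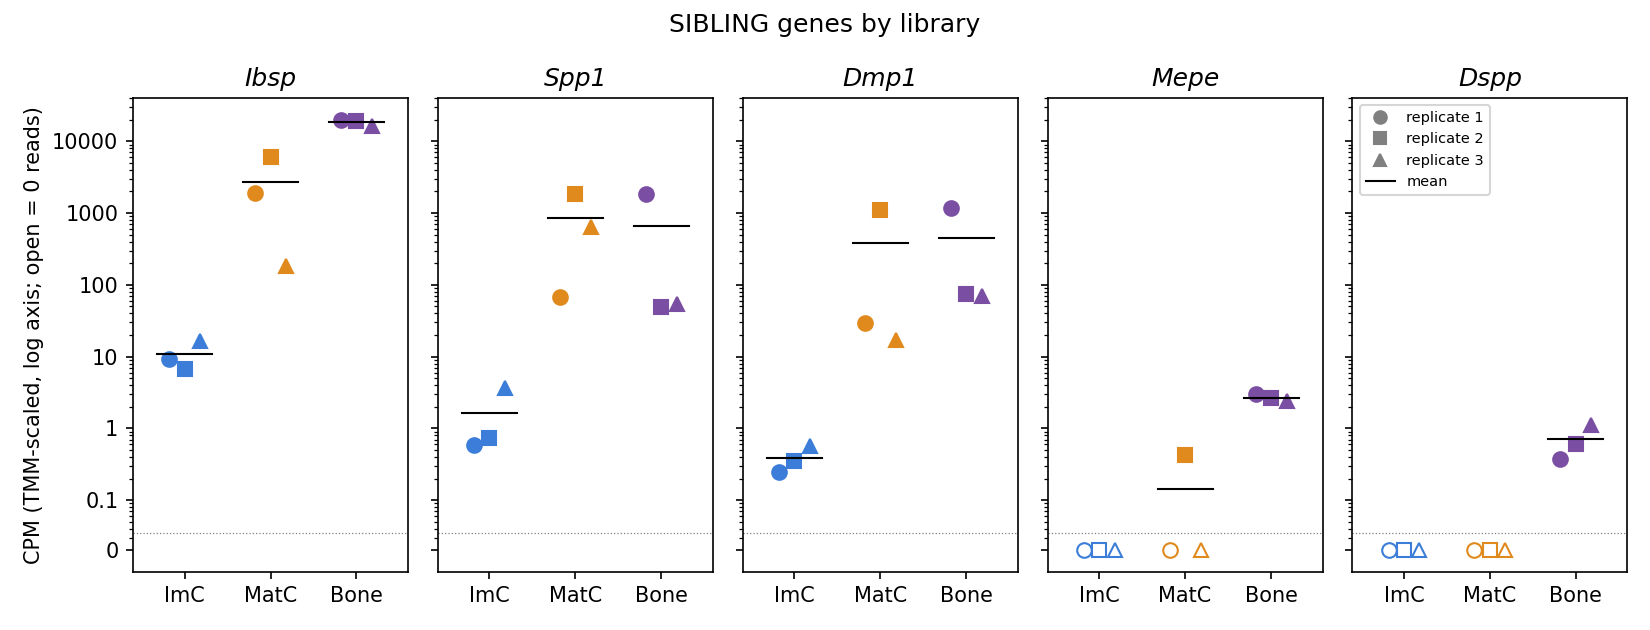
Level of each SIBLING gene in each library, in CPM scaled by TMM factors on a log axis (open symbols at the bottom, 0 reads), with the mean of each group as a line. Ibsp steps up from ImC through MatC to Bone, Spp1 and Dmp1 overlap between MatC and Bone, and Mepe and Dspp have reads almost only in Bone.

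Ibsp, the mineral-nucleating member, was the most abundant SIBLING gene per kilobase of exon in 8 of 9 libraries. It stood at 9.25, 6.70 and 16.3 CPM in ImC, at 1914, 5943 and 184.7 CPM in MatC and at 20080, 19060 and 16290 CPM in Bone. The group means were 10.8 ± 4.98, 2681 ± 2955 and 18480 ± 1959 CPM (SD, n = 3). The 3 groups did not overlap in Ibsp: every MatC library exceeded every ImC library and stayed below every Bone library. The first of these held for 11.4% of tested genes and the second for 17.9%. The share with both was not computed. The Bone libraries lay within 1.23-fold of each other, while MatC ran over 32.2-fold from replicate 3 to replicate 2.

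Spp1, the adhesive protein that restrains mineral growth, had another distribution. It was at 0.583, 0.745 and 3.63 CPM in ImC, at 66.9, 1834 and 644 CPM in MatC and at 1853, 49.1 and 54.7 CPM in Bone. MatC and Bone lay above ImC in every library but overlapped with each other, and Bone replicates 2 and 3 were below all MatC libraries. Group means were 1.65 ± 1.72, 848 ± 901 and 652 ± 1040 CPM for ImC, MatC and Bone (SD, n = 3), so that the SD exceeded the mean in every group.

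Dmp1, the matrix protein whose loss in humans and mice causes phosphate wasting, was at 0.25, 0.348 and 0.570 CPM in ImC, which rests on 3, 7 and 8 reads. It was at 29.6, 1087 and 17.3 CPM in MatC and at 1183, 75.3 and 70.0 CPM in Bone. Again ImC was lowest throughout, and MatC and Bone overlapped, with 1 library in each, MatC replicate 2 and Bone replicate 1, more than 10-fold above the other two. The means were 0.389 ± 0.164, 378 ± 614 and 443 ± 641 CPM (SD, n = 3).

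Mepe, a source of the mineral-inhibiting ASARM peptide, was scarce. No ImC library had a read, MatC had 0, 6 and 0 reads, and Bone had 55, 31 and 43 reads, or 2.98, 2.65 and 2.42 CPM (2.68 ± 0.28, SD, n = 3). Its reads were confined to the 3 Bone libraries and MatC replicate 2, the MatC library that was also highest in Ibsp, Spp1 and Dmp1. With 3 reads in the whole ImC group taken as a floor, which covers counting error only, Mepe was at least 41.5-fold higher in Bone. Between Bone and MatC the ratio of pooled reads was 13.9 (95% counting interval 6.20 to 38.5).

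Dspp, the dentin gene, had no read in any cartilage library and 7, 7 and 20 reads in Bone. This came to 0.379, 0.599 and 1.13 CPM (0.70 ± 0.38, SD, n = 3), so all Bone libraries had it and none of the others did. With 3 reads per group as the floor, it was at least 10.9-fold higher in Bone than in ImC and at least 7.31-fold higher than in MatC. It did not pass the filter with all 9 libraries. Without a filter, over 25811 genes, edgeR gave adjusted p = 0.0162 for Bone against ImC and 0.0744 for Bone against MatC. With a library left out the filter asks for fewer libraries with enough reads, and Dspp passed it in 7 of 9 fits. It was called by edgeR in 6 of them for Bone against ImC (adjusted p = 0.0185 to 0.052). For Bone against MatC it was called in 1, without ImC replicate 3 (adjusted p = 0.0489 to 0.189). Since Dspp entered these fits through its Bone reads alone, these calls are no added support.

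Set against each other per kilobase of annotated exon, the members fell in the same order of mean level in all groups: Ibsp, Spp1, Dmp1, then Mepe, then Dspp where they had reads. In Bone the levels were 8935 ± 947 CPM per kb for Ibsp, 396 ± 631 for Spp1, 160 ± 232 for Dmp1, 1.60 ± 0.166 for Mepe and 0.158 ± 0.087 for Dspp (SD, n = 3). Within each Bone library the order was the same, although Spp1 exceeded Dmp1 only slightly in replicates 2 and 3 (29.8 against 27.3 and 33.2 against 25.3 CPM per kb). In MatC the levels were 1296 ± 1429 CPM per kb for Ibsp, 515 ± 547 for Spp1 and 137 ± 222 for Dmp1, and the order held in each library except MatC replicate 3, where Spp1 (390.8 CPM per kb) exceeded Ibsp (89.3). In ImC, Ibsp at 5.2 ± 2.41 CPM per kb exceeded Spp1 at 1.0 ± 1.04 in every library.

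Within the family's reads, Ibsp took 91.7%, 86.0% and 79.5% in ImC, 95.2%, 67.0% and 21.8% in MatC and 86.9%, 99.3% and 99.2% in Bone. The MatC libraries were the ones that disagreed: in MatC replicate 3, Spp1 took 76.1% of the reads. The means were 85.8% ± 6.11 in ImC, 61.4% ± 37.0 in MatC and 95.1% ± 7.17 in Bone (SD, n = 3). Two-sided exact permutation tests gave p = 0.4 for MatC against ImC and p = 0.2 for Bone against each cartilage. With 3 libraries against 3 this test cannot go below 0.1, so it cannot decide whether the shares differ.

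**Figure D2:**
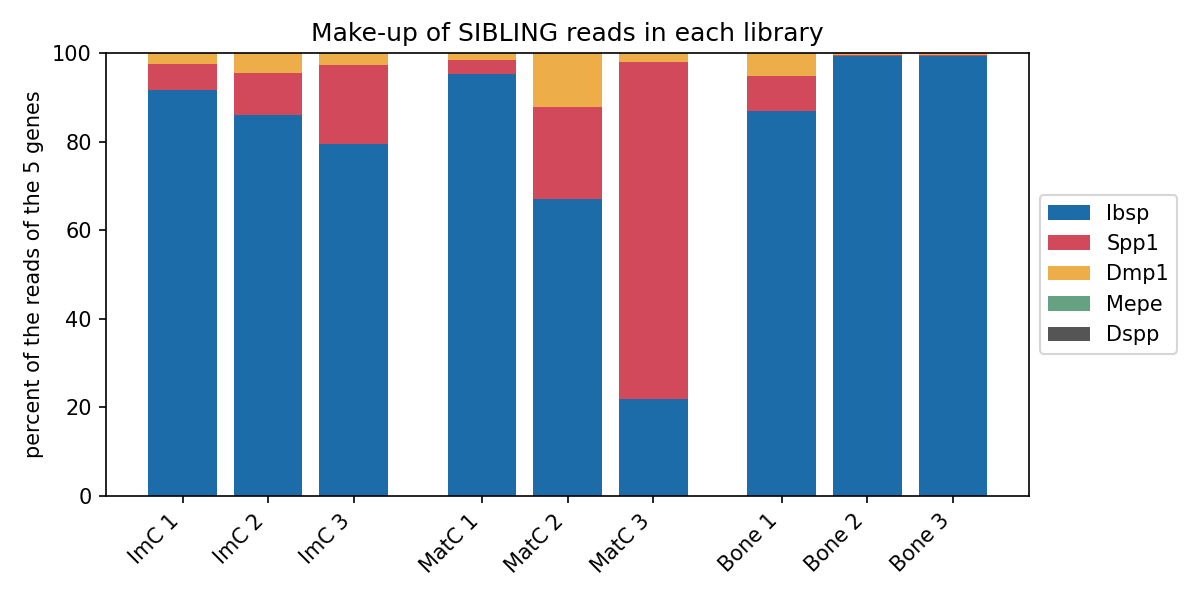
Share of each SIBLING gene in the summed reads of the 5 genes, in percent, 1 bar per library. Ibsp makes up most of each bar except in MatC replicate 3, where Spp1 takes 76.1%.

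MatC was compared with ImC to see which members changed with cartilage maturation. Ibsp, Spp1 and Dmp1 rose, and of the 14257 genes tested 7.71% were called at an adjusted p under 0.05 (5.41% higher, 2.29% lower). In edgeR's quasi-likelihood fit, the log2 fold change was 7.96 ± 1.18 (SE, adjusted p = 0.00553) for Ibsp, 9.0 ± 1.98 (adjusted p = 0.0255) for Spp1 and 9.89 ± 2.15 (adjusted p = 0.0247) for Dmp1. The median over all tested genes was 0.03. MatC and ImC did not overlap in these 3 genes, as was so for 11.4% of tested genes in the upward direction. Mepe, with its 6 reads in a single MatC library, had adjusted p = 0.162.

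The Ibsp call held under every alternative run, while those of Spp1 and Dmp1 were less secure. Both ended with limma-voom (adjusted p = 0.0774 and 0.18), without ImC replicate 1 (0.0915 and 0.0901) and without ImC replicate 2 (0.0685 and 0.0674). The Spp1 call also ended without MatC replicate 2 (0.0551). That of Dmp1 also ended without ImC replicate 3 (0.0564) and with a block for replicate number (0.0516). Without MatC replicate 2, the log2 fold change of Dmp1 was 5.89 (adjusted p = 0.0436).

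In Bone against ImC all 4 tested members rose, in a comparison where 31.1% of all genes were called (14.3% higher, 16.8% lower). Ibsp rose by 10.75 ± 1.32 on the log2 scale (SE, edgeR adjusted p = 0.000582), Spp1 by 8.62 ± 1.95 (adjusted p = 0.0092) and Dmp1 by 10.12 ± 2.17 (adjusted p = 0.00735). Mepe was called as well (adjusted p = 0.00613), and its size is best read from the bound given above. The median over all genes was -0.02, and 30.1% of genes were higher in every Bone library than in any ImC library. Without Bone replicate 1, Spp1 rose by 4.99 (adjusted p = 0.0226) and Dmp1 by 7.52 (adjusted p = 0.0187), and limma-voom ended both calls (adjusted p = 0.0566 and 0.0625).

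Between Bone and MatC no member was called (2 had an unadjusted p under 0.05), against 6.05% of all genes (1.36% higher, 4.69% lower). By edgeR, Ibsp had a log2 fold change of 2.79 ± 0.93 (SE, unadjusted p = 0.0129, adjusted p = 0.107) and Mepe one of 3.86 ± 1.10 (unadjusted p = 0.00764, adjusted p = 0.081). These 2 genes, and Dspp, were higher in every Bone library than in any MatC library, which held for 17.9% of tested genes. Spp1 differed by -0.38 ± 1.38 (adjusted p = 0.906) and Dmp1 by 0.23 ± 1.41 (adjusted p = 0.949), and differences of this size were not detectable at the spread of 3 libraries per group. DESeq2 called Ibsp and Mepe (adjusted p = 0.00572 and 0.0121), and edgeR called both without MatC replicate 2, where the Ibsp difference was 4.14 (adjusted p = 0.0446) and that of Mepe had adjusted p = 0.0376. Without Bone replicate 1 the differences of Spp1 and Dmp1 were -4.02 (adjusted p = 0.166) and -2.37 (adjusted p = 0.475).

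**Figure D3:**
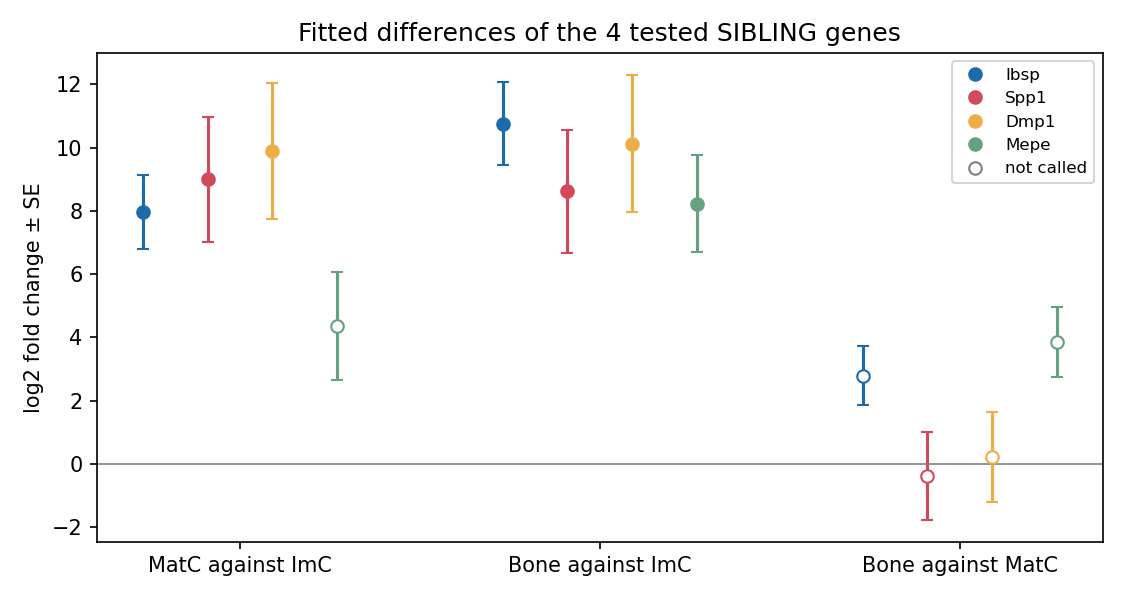
Fitted log2 fold changes (points) with their SE (bars) for the 4 tested SIBLING genes in the 3 pairwise comparisons; open points did not reach an adjusted p under 0.05. Ibsp, Spp1 and Dmp1 are above 8 in Bone against ImC, where the point of Mepe rests on an ImC group with 0 reads and is no measure of its size, whereas Spp1 and Dmp1 sit near 0 in Bone against MatC.

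Whether MatC sits above the log2 midpoint of ImC and Bone was tested in the same fit, in which 3.06% of all genes were called (2.98% higher, 0.0772% lower). No member was called by edgeR, and 3 had an unadjusted p under 0.05. The difference from the midpoint was 2.59 ± 0.73 for Ibsp (SE, unadjusted p = 0.00492, edgeR adjusted p = 0.0992), 4.69 ± 1.23 for Spp1 (unadjusted p = 0.00317, adjusted p = 0.0769), 4.83 ± 1.31 for Dmp1 (unadjusted p = 0.00388, adjusted p = 0.087) and 0.26 ± 0.31 for Mepe (adjusted p = 0.782). The value of Mepe and its SE rest on an ImC group with 0 reads and are no measure of its size or precision. DESeq2 called Ibsp and Spp1 (adjusted p = 0.0062 and 0.014). The call on Ibsp was also made by edgeR without MatC replicate 3 (adjusted p = 0.0122) and that on Spp1 without Bone replicate 1 (adjusted p = 0.0210).

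The Bone libraries resembled each other closely in Ibsp but not in Spp1 and Dmp1. Among 4610 genes with a Bone mean of at least 20 CPM, the median ratio of the highest to the lowest Bone library was 1.23, and 7 genes (0.152%) reached 10-fold. Spp1, at 37.8-fold, was the fifth widest of them and Dmp1, at 16.9-fold, the seventh. In both it was Bone replicate 1 that was high. In MatC such spreads were more common, with 97 of 4798 genes (2.02%) at 10-fold or more, and Ibsp (32.2-fold), Spp1 (27.4-fold) and Dmp1 (63.0-fold) ranked 30, 35 and 14.

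Few other genes set Bone replicate 1 apart in this way. Only 4 of the 4610 genes were at least 10-fold higher there than in either other Bone library: Spp1 (33.9-fold over the higher of the other two), Pax3 (21.3-fold), a transcription factor of neural crest and muscle, Enpp1 (16.5-fold), which makes the mineralization inhibitor pyrophosphate, and Dmp1 (15.7-fold). Another 3 genes reached 4-fold, among them Ank (5.10-fold), which exports ATP and so supplies pyrophosphate, and the immediate early gene Egr1 (5.62-fold); the remaining one was Gm26809 (6.82-fold). Fam20c, the kinase of SIBLING proteins, came next at 3.96-fold. Pax3, Enpp1, Ank, Egr1 and Gm26809 are named because of these values and were chosen after they were seen.

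By contrast Ibsp, Phex and Alpl were within 2-fold between Bone replicate 1 and the others, Phex at 348.4, 332.6 and 256.9 CPM and Alpl at 396.8, 636.0 and 545.8 CPM. Enpp1 was at 128.1, 7.79 and 6.08 CPM in Bone, Ank at 100.4, 19.7 and 19.0 CPM and Fam20c at 49.2, 12.4 and 9.57 CPM. Osteoclast markers went the other way: 10 or 11 of 11 had reads in each Bone library, and their summed level was 519.6 CPM in replicate 1 against 1128 and 1089 CPM. Summed macrophage markers (all 11 with reads) were at 43.3, 112.7 and 103.3 CPM and endothelial markers (all 10) at 60.7, 167.1 and 183.3 CPM. The part of these cell types in the Spp1 and Dmp1 values was not tested.

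**Figure D4:**
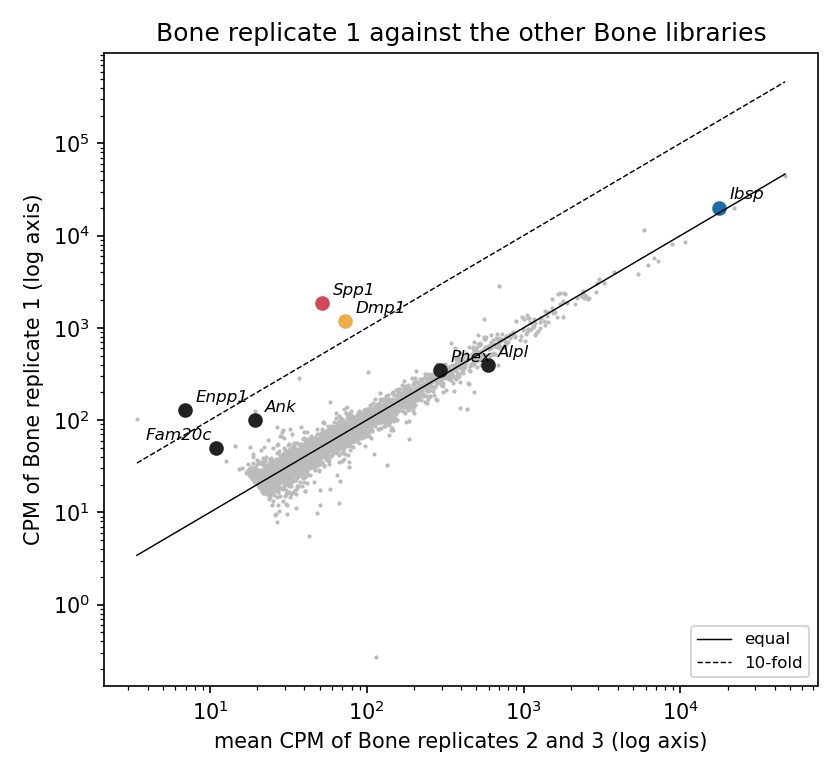
CPM of each gene with a Bone mean of at least 20 CPM in Bone replicate 1 (y) against the mean of Bone replicates 2 and 3 (x), both on log axes, with lines for equal levels and for 10-fold higher ones. Spp1, Dmp1 and Enpp1 lie above the 10-fold line, while Ibsp and Phex lie near the line of equality.

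In mature cartilage the members also tracked different companions from library to library. MatC replicate 2, highest in all 4 detected members, had the highest summed osteoblast markers without Alpl and Pth1r, which are also in the hypertrophic list (21750 CPM, against 7272 and 1547 CPM in replicates 1 and 3), osteocyte markers (380.7 against 167.4 and 61.4 CPM), osteoclast markers (634.0 against 141.6 and 48.7 CPM) and endothelial markers (308.6 against 115.7 and 37.6 CPM). Macrophage markers followed the same order, at 73.9 against 21.8 and 6.22 CPM. MatC replicate 3, where Spp1 outweighed Ibsp, had the highest summed hypertrophic chondrocyte markers, likewise without Alpl and Pth1r (6239 CPM against 2341 and 1847). Most of that sum was Col10a1, the collagen of hypertrophic cartilage, at 4760 CPM against 816.9 and 933.1 CPM. Ihh, Panx3, Foxa2 and Foxa3 were also highest in replicate 3, while Mef2c was lowest there (383 CPM, against 633.6 and 441.7 CPM). Mmp13 was higher in replicate 2. Summed immature chondrocyte markers were likewise highest in replicate 3 (21870 CPM, against 16770 and 9124 CPM). With Alpl and Pth1r included, the sums of osteoblast markers in replicates 1, 2 and 3 were 8547, 24620 and 8810 CPM. Those of hypertrophic markers were 3616, 4715 and 13500 CPM, and Pth1r alone was at 7125 CPM in replicate 3. The Col1a1 level of replicate 3 was 163.8 CPM, within the range of ImC, against 1487 and 7726 CPM. The part of these cells in the SIBLING values was not tested.

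The markers of other cell types also moved between the groups. In MatC against ImC, osteoblast markers rose in 6 of 13 tested genes, osteocyte markers in 4 of 7, osteoclast markers in 4 of 10, macrophage markers in 4 of 10, endothelial markers in 7 of 10 and hypertrophic chondrocyte markers in 7 of 9, none falling, with medians of 3.71, 4.68, 4.76, 4.28, 5.70 and 6.16 on the log2 scale against 0.03 over all genes, of which 5.41% rose. Immature chondrocyte markers fell in 3 of 14, where 2.29% of all genes fell. In Bone against ImC the corresponding rises were 12 of 13, 6 of 7, 8 of 10, 9 of 10, 8 of 10 and 5 of 9, against 14.3% of all genes. In the same comparison 2 hypertrophic markers (Foxa3 and Foxa2) and all 14 immature chondrocyte markers fell, against 16.8% of all genes. Summed osteoclast markers ran from 22.6 to 50.8 CPM in ImC, 48.7 to 634.0 in MatC and 519.6 to 1128 in Bone, and the macrophage gene C1qa had no read in any ImC library. Their part in the differences of the SIBLING genes was not tested.

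Genes that modify SIBLING proteins rose together with them in part. Of 14 tested genes for phosphorylation and cleavage, 5 rose and 0 fell in MatC against ImC (median 1.75 on the log2 scale; 5.41% of all genes rose), 7 rose and 0 fell in Bone against ImC (median 1.90; 14.3% of all genes), and none was called by edgeR between Bone and MatC (median 0.61; 4 had an unadjusted p under 0.05). Phex, the endopeptidase that degrades the ASARM peptide of Mepe and Spp1, rose by 6.77 ± 0.86 in MatC (SE, edgeR adjusted p = 0.00291) and by 9.07 ± 0.93 in Bone (adjusted p = 0.000236). Mmp13, a collagenase of hypertrophic cartilage, rose by 10.07 ± 1.07 and 10.02 ± 1.06 over an ImC level of 0, 0 and 1 reads. The pseudokinase Fam20a, a partner of Fam20c, was called higher at 5.28 ± 1.39 and 6.10 ± 1.38 (edgeR adjusted p = 0.047 and 0.00937). These sizes rest on an ImC level of 1, 0 and 0 reads, and MatC, with 36, 9 and 0 reads, overlapped ImC.

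Fam20c itself was at 9.08, 8.04 and 3.35 CPM in ImC, 26, 61.4 and 188.1 CPM in MatC and 49.2, 12.4 and 9.57 CPM in Bone. Its mean was highest in MatC, where every library was above ImC, and Bone overlapped MatC. It rose by 3.74 ± 0.86 in MatC against ImC (adjusted p = 0.0294) and was called above the midpoint of ImC and Bone, by 2.84 ± 0.64 (adjusted p = 0.0431). Acp5, the osteoclast phosphatase that removes phosphate from Spp1, rose in Bone against ImC by 6.82 ± 1.42 (adjusted p = 0.00662), at 63.1, 213.3 and 161.0 CPM in Bone. It was lowest in Bone replicate 1, the Bone library with the most Spp1.

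Among 12 receptors and binding partners, 3 rose and 0 fell in MatC against ImC (median 1.18; 7.71% of all genes were called). In Bone against ImC 3 rose and 1 fell (median 0.57), a share near the 31.1% called among all genes. Itgb3, which pairs with Itgav as the osteopontin receptor of osteoclasts, was at 0.833, 0.645 and 0.0712 CPM in ImC, 9.63, 42.4 and 32.3 CPM in MatC and 11.9, 33.0 and 29.3 CPM in Bone. It rose by 5.74 ± 0.82 (SE, edgeR adjusted p = 0.00468) and 5.56 ± 0.81 (adjusted p = 0.0013), and Itgav rose in Bone by 1.68 ± 0.34 (adjusted p = 0.00578). Itgb8 rose in MatC by 3.27 ± 0.81 (adjusted p = 0.0389) and was the only gene of the list called between Bone and MatC, where it fell by 3.46 ± 0.82 (adjusted p = 0.0372). Itga9, a receptor for a cleaved form of osteopontin, fell in Bone against ImC by 2.55 ± 0.77 (adjusted p = 0.0303).

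Transcription factors of bone formation rose in 7 of 12 tested genes in MatC against ImC (median 3.73) and in 9 of 12 in Bone against ImC (median 4.55), with 0 falling in either, where 5.41% and 14.3% of all genes rose. Mef2c rose by 3.79 ± 0.32 and 4.31 ± 0.33, Dlx3 by 6.90 ± 0.73 and 9.12 ± 0.78 and Sp7, without which osteoblasts do not form, by 5.43 ± 0.75 and 6.89 ± 0.80 (edgeR adjusted p at most 0.0041). Msx1 and Dlx3 were the 2 factors called higher in Bone than in MatC, by 4.80 ± 0.65 (adjusted p = 0.0029) and 2.22 ± 0.53 (adjusted p = 0.0382). Sp7 and Mef2c did not set Bone replicate 1 apart: Sp7 was at 516.9, 480.2 and 458.7 CPM and Mef2c at 696.4, 652.6 and 744.1 CPM.

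Of 9 tested genes of phosphate handling and mineral deposition, 3 rose and 0 fell in MatC against ImC (median 1.38; 7.71% of all genes were called), and 5 rose and 2 fell in Bone against ImC (median 3.58; 31.1% of all genes were called). The phosphatase Alpl rose by 7.99 ± 0.74 (SE, edgeR adjusted p = 0.000849) and 9.36 ± 0.78 (adjusted p = 8.86e-05). The sphingomyelinase Smpd3 rose by 4.89 ± 0.62 (adjusted p = 0.00297) and 4.43 ± 0.61 (adjusted p = 0.000975). Those that fell in Bone against ImC were Mgp, an inhibitor of calcification, by 4.52 ± 0.60 (adjusted p = 0.000832) and the phosphate transporter Slc20a1 by 1.94 ± 0.35 (adjusted p = 0.00369). The same 2 genes also fell in Bone against MatC, by 4.44 ± 0.60 (adjusted p = 0.00284) and 1.84 ± 0.35 (adjusted p = 0.0162).

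Genes around the cluster did not share the size of the SIBLING differences. Of the annotated genes within 500 kb of its ends, Aff1, Klhl8, Hsd17b11, Nudt9, Sparcl1, Pkd2, BC005561, D930016D06Rik and Zfp951 passed the filter. In Bone against ImC, Aff1 rose by 1.83 ± 0.40 on the log2 scale (SE, edgeR adjusted p = 0.00819), Klhl8 by 3.10 ± 0.76 (adjusted p = 0.0127) and Nudt9 by 1.56 ± 0.27 (adjusted p = 0.00297). BC005561 fell by 1.29 ± 0.33 (adjusted p = 0.0148) and D930016D06Rik by 0.72 ± 0.24 (adjusted p = 0.0454). All 3 that rose lie before Dspp and both that fell lie after Spp1. Hsd17b11 and Sparcl1 before Dspp, and Pkd2 and Zfp951 after Spp1 (Zfp951 at 1.90 ± 1.51), were not called. Of all tested genes, 14.3% rose and 16.8% fell in this comparison, and an effect of position was not tested.

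The tested genes closest to the cluster on either side were Sparcl1 and Pkd2. Sparcl1, an acidic matrix protein related to Sparc that lies 57.0 kb before Dspp, had differences of 2.40 ± 0.96 in MatC against ImC (adjusted p = 0.157) and 1.48 ± 0.94 in Bone against ImC (adjusted p = 0.253). Pkd2, a cation channel gene that begins 18.4 kb after Spp1, had -0.31 ± 0.40 and -0.47 ± 0.40 (adjusted p = 0.680 and 0.396). Aff1 was the only neighbour called in MatC against ImC, at 1.49 ± 0.40 (edgeR adjusted p = 0.0499), where 7.71% of all genes were called. None was called between Bone and MatC, against 6.05% of all genes. There Nudt9 and BC005561 had unadjusted edgeR p-values of 0.00862 and 0.0314.

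**Figure D5:**
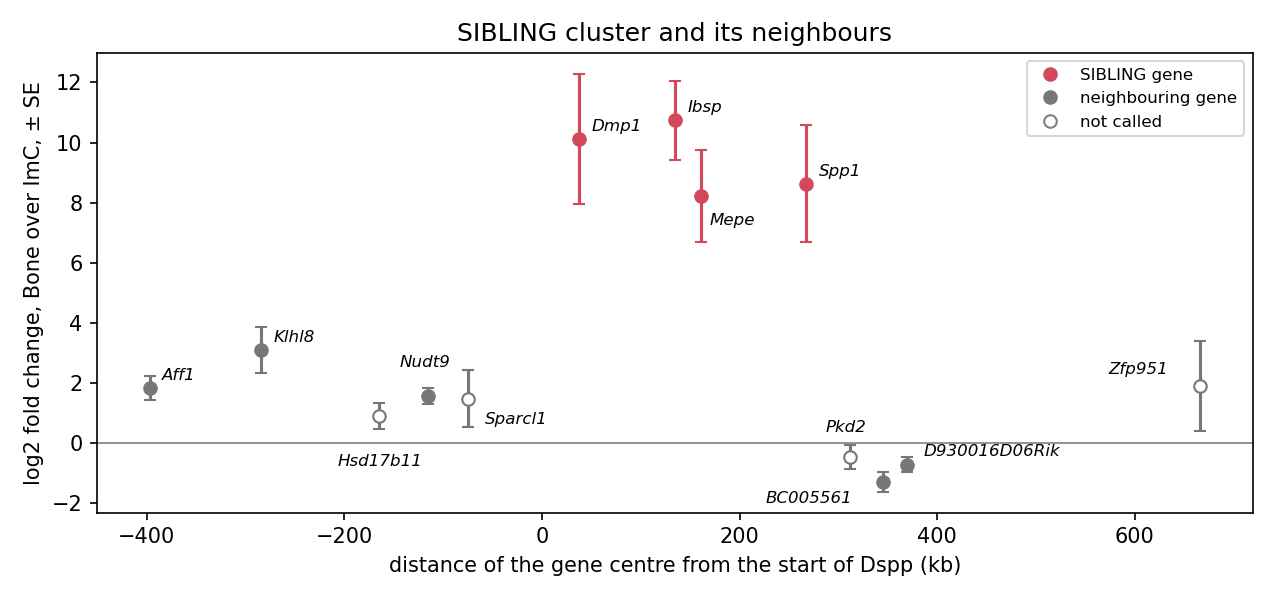
Log2 fold change of Bone over ImC (points) with SE (bars) against the distance of each gene's centre from the start of Dspp in kb, for SIBLING genes and tested neighbours; open points were not called. Ibsp, Spp1 and Dmp1 lie above 8 and the neighbours between -1.29 and 3.10, while the point of Mepe, over 0 reads in ImC, is no measure of its size.

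The genes with the most similar pattern to each member over the 9 libraries were sought among 6063 genes with at least 20 CPM in 1 group, by the root mean square difference of centred log2 CPM, with the members themselves left out. For Ibsp they included 9130024F11Rik (0.72), Phex (0.99) and Gpr133 (1.01), where the median candidate was at 4.63. 9130024F11Rik had no read in ImC, 10.6, 48.4 and 1.41 CPM in MatC and 102.8, 66.8 and 88.2 CPM in Bone, with the same order of MatC libraries as Ibsp. For Dmp1 they were 9130024F11Rik (1.47), Enpp6 (1.5), Phex (1.52) and Scn3a (1.63), with a median of 4.21.

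For Spp1 the nearest genes outside the family were farther away: Mmp13 (1.88), Bmp8a (1.94), Tnfaip2 (2.03) and Loxl4 (2.13), with a median of 4.14. None of these was raised in Bone replicate 1. Mmp13 was at 7.28, 50.3 and 41.9 CPM in MatC and 21.4, 37.8 and 37.2 CPM in Bone. Among the members themselves Spp1 and Dmp1 were closest (1.62), nearer than any of these to Spp1, followed by Ibsp and Dmp1 (1.82), while Ibsp and Spp1 were 3.04 apart.

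Sost, picked from the further genes with the promoter arrangement, was at 0, 0 and 0.0712 CPM in ImC, 0.379, 8.39 and 0 CPM in MatC and 7.74, 2.31 and 6.59 CPM in Bone. Its highest MatC library, replicate 2, was also the highest in the SIBLING genes. It rose by 6.64 ± 1.76 on the log2 scale in MatC against ImC (SE, edgeR adjusted p = 0.0475) and by 7.49 ± 1.77 in Bone against ImC (adjusted p = 0.0111). The MatC value rests on 5, 119 and 0 reads against 0, 0 and 1 in ImC, and these groups overlapped. Since Sost was picked after its values were seen, these p-values are no test of the arrangement.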

How the data were processed

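The authors deposited whole-number read counts per gene symbol for 9 libraries. The other deposited table holds the authors' normalized values, rounded (a score), and served only to recover their scaling factors. The submitters' processing notes name Trimmomatic 0.30, TopHat2, Bowtie2, HTSeq, edgeR and mm10, and per the labels' protocols the RNA was amplified and the kit does not mark strand. The gene annotation used for counting was not given in the sources used here.

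Counts were tested with edgeR 4.0.16 in R 4.3.3 (quasi-likelihood test, filterByExpr with a minimum count of 10, TMM factors, all 9 libraries in 1 fit, Benjamini-Hochberg adjustment over 14257 genes, called at an adjusted p under 0.05). SEs were derived from the F statistic as |log2 fold change| / sqrt(F). CPM levels use TMM factors and are given as mean ± SD. Nearest patterns used a prior count of 2. Alternatives were DESeq2 1.42.0, limma-voom (limma 3.58.1), other scalings, no filter, a block and each library left out. The procedure was tested on simulated data, with a smaller spread and smaller changes than Spp1 and Dmp1 showed against ImC. Annotation was GENCODE M21 (GRCm38), and promoters came from RefSeq (GRCm38.p6), in which 4 of 5 members matched.

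Members and gene lists were chosen with earlier results of these data known. Named genes are the members, up to 3 called genes with the smallest p per list and comparison, called genes against their list, neighbours within 500 kb, the 4 nearest patterns per member and defining markers. Every pair of replicates differed by more than sampling noise. Some single genes that this rule takes are not reported here.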

Additional observations from a re-analysis of the deposited data

How the results depend on the processing

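Across the alternatives, the calls of Ibsp in MatC against ImC (log2 fold change 6.62 to 8.53) and in Bone against ImC (10.51 to 11.34) and that of Mepe in Bone against ImC were kept in all 18 settings run for each. In MatC against ImC, 3 members were called, with limma-voom 1, and with a library left out 1 to 3 (1 without ImC replicate 1 or 2). DESeq2 called 2 there, Ibsp and Spp1. In Bone against MatC none was called, against 2 without a filter, 2 with DESeq2, 1 with limma-voom, 1 when only these groups were fitted, and 0 to 2 with a library left out (2 without ImC replicate 3 or MatC replicate 2). In Bone against ImC, 4 were called, with limma-voom 2, without a filter 5 and with a library left out 4 to 5. The added call was Dspp, which had reads only in Bone and entered these fits through them. DESeq2 called 4 as well, with Dspp (adjusted p = 0.0218) among them and Dmp1 not. For the midpoint none was called, against 3 without a filter, 2 with DESeq2 and 0 to 1 with a library left out (1 without MatC replicate 3 or Bone replicate 1). Mepe had no value in MatC against ImC without MatC replicate 2, where no remaining library of these groups had a read. DESeq2 gave no adjusted p for Dmp1 in any comparison, so that the Dmp1 calls were not repeated by it, and the cause of that was not tested.

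Directions turned only among differences that were not called. In Bone against MatC, Spp1 was at 1.05 when scaled by library size only, and at 0.9, 0.19 and 0.18 without MatC replicate 2, Bone replicate 2 and Bone replicate 3, in a range from -4.02 without Bone replicate 1. Dmp1 was at -0.31, -0.3 and -2.37 without MatC replicate 1, MatC replicate 3 and Bone replicate 1, in a range up to 4.24 without MatC replicate 2. The midpoint difference of Mepe, over 0 reads in ImC, was -0.7 with library size only, -0.1 with DESeq2, -1.14 with limma-voom and -4.11 without MatC replicate 2. The share of all genes called ran from 1.56% to 13.5% for MatC against ImC, 1.12% to 11.7% for Bone against MatC, 14.5% to 37.8% for Bone against ImC and 0.526% to 5.93% for the midpoint. A scaling by the authors' factors, added after seeing the data, changed no member call.

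The replicate numbers are not stated to pair samples, and deviations of same-numbered libraries correlated at -0.143 to 0.265, with the own number best in 5 of 18 cases. With a replicate block, 2 members were called in MatC against ImC (Dmp1 at 8.68, adjusted p = 0.0516), 0 in Bone against MatC, 4 in Bone against ImC and 0 for the midpoint, where Mepe was at -0.12; 5.09% of all genes were called in MatC against ImC, against 7.71% without the block. The Ibsp share kept its sign in all 11 settings, from -41.3 to -4.6 percentage points for MatC minus ImC, 14 to 50.7 for Bone minus MatC and 6.3 to 13.5 for Bone minus ImC. MatC replicate 3 limits what low counts of Mepe and Dspp in mature cartilage can show.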

Other observations

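Among the 3 tested genes of the enamel and related secretory calcium-binding phosphoprotein group, to which the SIBLING genes are kin, Ambn (ameloblastin, a matrix protein of enamel) had its highest levels in Bone. It was at 0, 0.0496 and 0.0712 CPM in ImC, 4.24, 29.0 and 0 CPM in MatC and 93.6, 84.2 and 85.5 CPM in Bone. The Bone libraries were close together and above all others, and in MatC the order of the libraries was that of Ibsp. Ambn rose by 7.79 ± 1.53 on the log2 scale in MatC against ImC (SE, edgeR adjusted p = 0.0168) and by 10.72 ± 1.58 in Bone against ImC (adjusted p = 0.00138). These sizes rest on an ImC level of 0, 1 and 1 reads, and MatC, with 56, 412 and 0 reads, overlapped ImC. Between Bone and MatC it was not called, at 2.93 ± 0.98 (adjusted p = 0.11). Sparc, the collagen-binding glycoprotein of bone from whose gene family the group is thought to descend, rose by 3.26 ± 0.67 in Bone against ImC (adjusted p = 0.0062) and by 2.71 ± 0.65 in Bone against MatC (adjusted p = 0.0386).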
